A study of Mus musculus with 9 samples.

Results

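Within the UBTF peak lists of mouse pre-B cells, a set of summits lay in GC-rich DNA away from the starts of protein-coding genes, and these GC-rich distal summits are described here. A summit, the position of highest signal in a peak, belonged to the set where its peak was among the best 20000 of its list by the deposited peak score, outside the ribosomal DNA (rDNA) repeat and on chromosomes 1 to 19. The window of 100 bp on each side of it also had to hold at least 60% G and C, no uninterrupted tandem repeat of a 1 to 6 bp unit reaching 40 bp, and no start of a protein-coding gene within 1 kb. The rule took 10257 of the 111647 ranked summits on these chromosomes, and where their windows overlapped they were joined into 6402 loci. Score, GC content, repeat content and distance to gene starts therefore chose the set, so its values for these are descriptions without a test.

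The study profiled UBTF by chromatin immunoprecipitation sequencing in primary pre-B cells of bone marrow, at 3 stages with 2 libraries each. The labels give a gate of high B220 and low IgM and IgD for every stage, whereas the study's methods describe the malignant cells as B220-positive and negative for IgM and IgD. Wild type cells came from C57BL/6 mice of 4 to 6 weeks, premalignant cells from Eμ-Myc heterozygotes of the same strain and age, and malignant cells from Eμ-Myc mice that had developed spontaneous lymphoma at 10 to 20 weeks. The transgene drives Myc from the immunoglobulin heavy chain enhancer and so in B-lineage cells, and the antiserum recognised both UBTF1 and UBTF2. Peak lists hold no expression levels, so the cell type could not be checked against markers, and each p-value measures only the spread between these libraries.

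UBTF is a DNA-bending protein with several HMG boxes that covers the transcribed ribosomal RNA genes and keeps them open for RNA polymerase I. Away from the rDNA, unmethylated CpG islands are the usual GC-rich elements of mammalian genomes, and many of them mark gene starts that older annotations place inside a gene or do not list. GC-rich DNA also occurs in repeated elements, and mouse L1 retrotransposons are known for promoters built of short GC-rich monomers in tandem.

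Pooled over the libraries, most GC-rich distal summits lay on sequence of that repeated kind. Joining summits that shared at least 10 distinct 24-base words gave 3 large families whose words recurred at spacings of 212, 208 and 206 bp, together 7554 summits or 73.6% of the set. Of these summits 7459 came from replicate 1 libraries. In replicate 2 libraries the families held 25.6% (wild type), 2.51% (premalignant) and 0% (malignant) of the set. No repeat annotation was used, and the families were not assigned to named elements. One unit of each is shown because these sequences account for most of the set. Each is the unit under the best-ranked summit of its family, chosen after the values were seen, read 5′ to 3′ on the plus strand of mm9, with the motif most frequent in the family in capitals (CCGGAAG for the first, TCCCNNGGG for the second and GGGCGG, here on the opposite strand, for the third). The first lies between genes on chr6:128636173-128636384, 23.9 kb from the start of Clec2h. The second lies in an intron of Ces1c on chr8:95641121-95641328, and the third between genes on chr7:37828076-37828281, 345 kb from the start of Tshz3.
212 bp unit: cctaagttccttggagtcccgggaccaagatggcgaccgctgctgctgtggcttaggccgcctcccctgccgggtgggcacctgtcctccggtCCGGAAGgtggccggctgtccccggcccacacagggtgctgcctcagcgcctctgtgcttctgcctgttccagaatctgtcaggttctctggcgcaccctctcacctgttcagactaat
208 bp unit: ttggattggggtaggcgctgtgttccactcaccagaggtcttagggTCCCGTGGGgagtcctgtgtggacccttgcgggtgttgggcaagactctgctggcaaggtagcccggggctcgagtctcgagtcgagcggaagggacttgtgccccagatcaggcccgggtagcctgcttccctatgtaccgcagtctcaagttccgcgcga
206 bp unit: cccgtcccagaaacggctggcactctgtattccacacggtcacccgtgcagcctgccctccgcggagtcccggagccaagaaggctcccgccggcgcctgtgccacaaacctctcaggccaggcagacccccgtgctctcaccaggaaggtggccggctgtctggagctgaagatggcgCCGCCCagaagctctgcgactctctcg

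Another kind of sequence in the set was CpG-dense and of few copies or 1 in mm9. Shown are 3 windows because they were among the 4 best-ranked loci in the set. Not all sequence outside the 3 large families was of this kind. A family of 348 summits had a median of 486 copies and one of 63 summits had 510. Whether the windows shown share sequence with the rDNA repeat was not tested. All are on the plus strand of mm9 with each CpG in capitals. The window at chr16:11144115-11144315 lies in an intron of Zc3h7a, 3 bp from the annotated start of the microRNA gene mmu-mir-689-2. That at chr16:57391556-57391756 lies in an intron of Filip1l, which 2610528E23Rik overlaps on the other strand. The third, chr11:105043041-105043241, has its summit in an exon of Tlk2, a kinase of chromatin assembly, 34 bp from the start of one of its transcripts and 3020 bp from the annotated gene start.
chr16:11144115-11144315: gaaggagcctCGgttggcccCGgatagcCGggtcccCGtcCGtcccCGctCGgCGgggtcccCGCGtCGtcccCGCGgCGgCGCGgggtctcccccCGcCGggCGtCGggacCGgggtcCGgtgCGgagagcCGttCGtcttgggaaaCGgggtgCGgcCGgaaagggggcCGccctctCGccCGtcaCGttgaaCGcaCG
chr16:57391556-57391756: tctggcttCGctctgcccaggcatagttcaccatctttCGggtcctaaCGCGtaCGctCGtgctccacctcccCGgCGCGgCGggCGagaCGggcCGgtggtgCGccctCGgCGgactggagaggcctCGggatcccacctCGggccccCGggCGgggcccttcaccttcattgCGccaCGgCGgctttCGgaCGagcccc
chr11:105043041-105043241: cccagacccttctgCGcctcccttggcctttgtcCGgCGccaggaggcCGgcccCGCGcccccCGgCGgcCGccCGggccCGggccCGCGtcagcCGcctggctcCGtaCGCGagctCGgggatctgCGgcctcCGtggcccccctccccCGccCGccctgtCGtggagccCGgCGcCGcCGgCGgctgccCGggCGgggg

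The 6 lists held between 78074 and 575596 peaks outside the rDNA. The narrowest peak was 240 to 260 bp in both wild type lists and premalignant replicate 1, and 670 to 800 bp in the other 3, so that these lists form a narrow and a wide set. Windows with a tandem repeat made up 9.01% to 73.9% of the best summits, which leaves unequal numbers for any other kind of sequence. Read depth is unknown, since the lists give no counts. With the default options stated in the methods, Bowtie2 reports 1 best alignment for a read and picks at random among equal ones, so a summit on multi-copy sequence does not say which copy was bound.

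GC-rich distal summits were far more numerous in replicate 1 than in replicate 2 of every stage. In wild type cells replicate 1 held 1916 of them (10.1% of its ranked summits) and replicate 2 held 351 (1.84%). The premalignant libraries held 2721 (14.4%) and 199 (1.10%), and the malignant ones 4702 (25.5%) and 368 (2.02%). The stages therefore overlapped, with means of 1133.5 ± 1107, 1460.0 ± 1783 and 2535 ± 3065 summits (SD, n = 2 each). Of all windows of that size on chromosomes 1 to 19, tiled without regard to peaks, 0.837% met the same conditions on GC, repeats and distance.

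Most of the excess in replicates 1 lay in the unit families. Summed over the stages, every kind of sequence was more numerous in replicates 1. In wild type cells alone, however, other multi-copy sequence had 165 summits in replicate 1 and 173 in replicate 2. Over the stages the families had 7459 summits in replicates 1 and 95 in replicates 2, the 5S gene cluster described below 328 and 72, other multi-copy sequence 1052 and 440, and single-copy sequence 500 and 311. The families gave 1526, 2221 and 3712 summits in wild type, premalignant and malignant replicate 1, but 90, 5 and 0 in the corresponding replicates 2. Single-copy sequence, where the median 24-base word of the window occurs once in the genome, gave 120, 170 and 210 summits in replicates 1 and 61, 79 and 171 in replicates 2. By stage these were 90.5 ± 41.7, 124.5 ± 64.3 and 190.5 ± 27.6 (SD, n = 2), with the premalignant range reaching into the wild type one and below the malignant one. The single-copy summits made up 4.47% to 6.26% of the set in replicates 1 and 17.4% to 46.5% in replicates 2.

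**Figure D1:**
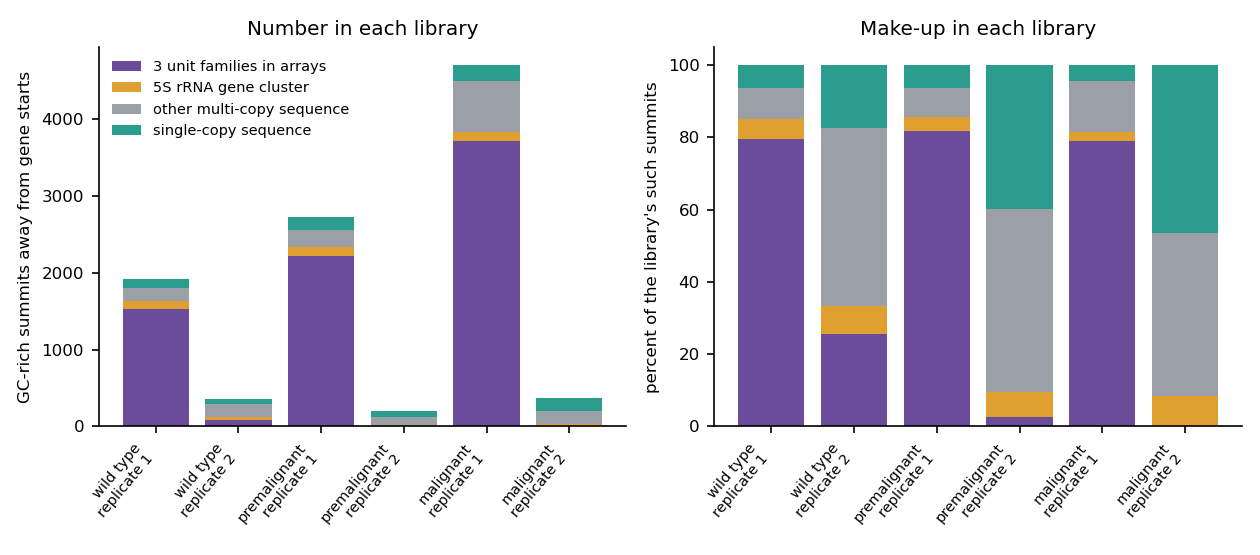
GC-rich distal summits in each of the 6 libraries by kind of sequence, as a number (left) and as a percent of the library's GC-rich distal summits (right). The unit families fill 78.9% to 81.6% of the bars of replicates 1 and 0% to 25.6% of those of replicates 2.

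These counts moved with how far down the list peaks were taken. Among ranks 1 to 1000 the share of GC-rich distal summits was 1.14% and 0.834% in the wild type libraries, 1.66% and 3.64% in the premalignant ones and 13.3% and 5.13% in the malignant ones. At ranks 10001 to 20000 it had climbed to 16.7% in wild type replicate 1 and 21.1% in premalignant replicate 1. Malignant replicate 1 peaked earlier, at 42.2% of ranks 1001 to 5000. Wild type replicate 2 reached 11.4% only past the limit of the rule, at ranks 20001 to 50000. With the best 5000 peaks alone, the wild type libraries were alike in number, with 46 and 39 summits, and so were the premalignant ones with 96 and 83, while the malignant libraries held 1706 and 124.

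**Figure D2:**
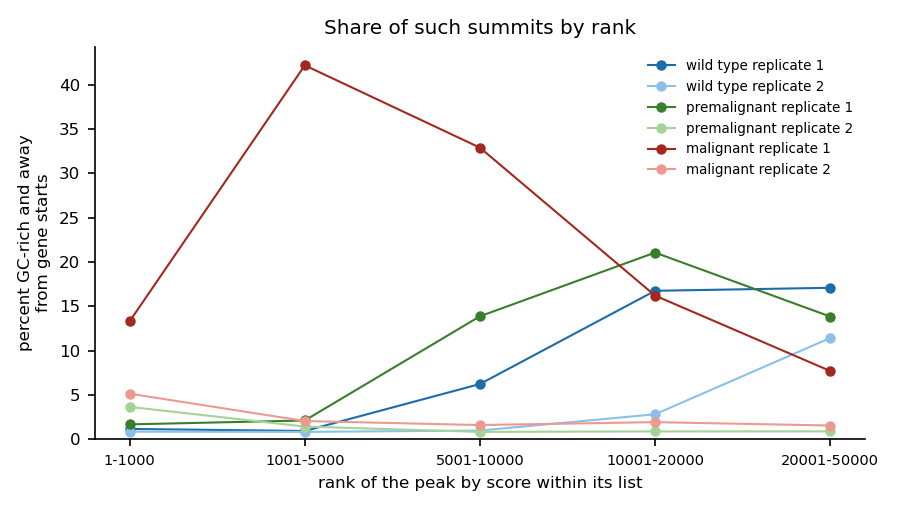
Percent of ranked summits on chromosomes 1 to 19 that were GC-rich and distal (vertical axis) by rank of the peak score within its list (horizontal axis), 1 line per library. Malignant replicate 1 rises to 42.2%, and premalignant replicate 2 and malignant replicate 2 stay at or under 5.13% in every bin.

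Values at the limits of the rule were close on either side. A window of 60.2% GC was inside and one of 59.7% outside, with 4 to 95 summits a library at the first value and 5 to 122 otherwise eligible ones at the second. The nearest member to a gene start lay at 1002 bp and the farthest excluded summit at 1000 bp, and the longest repeat inside was 39 bp. Premalignant replicate 1 had tied scores at rank 20000, with 40 peaks inside and 340 outside.

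The 3 unit families spread over all 19 chromosomes and far from the starts of protein-coding genes. Protein-coding gene bodies held 25.3%, 23.2% and 30.9% of the summits of the 212, 208 and 206 bp families. The 212 bp family had 3474 summits at 2267 loci, the 208 bp family 3333 at 1932 loci and the 206 bp family 747 at 452 loci. A spacing within 3 bp of these lengths was found around 93.1%, 90.8% and 94.8% of their summits. Their 24-base words occurred at a median of 3165, 3446 and 1020 places in the genome. The median distance to a protein-coding gene start was 140 kb, 142 kb and 143 kb, and 0.777%, 0.270% and 1.07% lay within 1 kb of any annotated transcript start.

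The families differed in their most frequent motif, although the 212 bp and 206 bp families shared motifs. The ETS motif CCGGAAG, the core of sites for ETS factors, was in 64.5% of summit windows of the 212 bp family. It was in 10.4% of the 206 bp family and in none of the 208 bp family. The EBF1 core TCCCNNGGG, the inner part of sites for the B-lineage factor EBF1, was in 93.8% of windows of the 208 bp family and in none of the other 2. The GC box GGGCGG, the site of SP factors, was in 88.2% of windows of the 206 bp family, 54.1% of the 212 bp family and 0.120% of the 208 bp family. Over the 99649 genome windows that met the rule without regard to peaks, on both strands, these motifs were in 6.12%, 12.9% and 24.9%. A motif here is a match of letters, and because copies of a unit share sequence the summits of a family are not independent cases.

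The positions of these units in the genome were then used to see where each list put its summit. Words found in at least 10% of a family marked 4112 arrays on chromosomes 1 to 19, 1739 of the 212 bp unit, 1974 of the 208 bp unit and 399 of the 206 bp unit, with median lengths of 668, 590 and 589 bp or about 3 units. On one side of the arrays the flanking sequence recurred from array to array (a median of 93.0% to 97.5% of its words in at least 5% of arrays) and on the other it did not (0%), and the end toward the recurring side is called the inner end. The words come mainly from replicate 1 summits, so a summit on the array in those libraries follows in part from the choice. In each full list taken alone, the middle of the array lay inside a peak for 80.6% to 99.94% of arrays, whatever the family. Peaks of a list covered 4.67% to 18.9% of chromosomes 1 to 19.

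Lists differed in where the highest-scored summit within 3000 bp before and 8000 bp past the inner end was. In wild type replicate 1 it lay on the array for 77.1% to 91.0% of arrays over the 3 families, in wild type replicate 2 for 55.1% to 78.3%, in premalignant replicate 1 for 67.6% to 77.5% and in malignant replicate 1 for 61.9% to 72.6%. Premalignant replicate 2 had it there for 0% to 0.304% and malignant replicate 2 for 0% to 0.0575%. In those 2 libraries it lay past the inner end for 97.3% to 98.2% and 96.6% to 97.7% of arrays, at a median of 2157.5 to 2248 bp and 3000.5 to 3331 bp. Positions up to 6 kb past the inner end held 94.6% to 96.0% and 92.5% to 94.0% of arrays with a summit. In malignant replicate 1, also of the wide set, the median position was −138 to −88 bp, on the array side of the inner end, so the libraries did not divide by the narrow and wide sets.

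At arrays of the 206 bp unit, both libraries with displaced summits had their fullest 250 bp bin at 1500 bp past the inner end, with 18.6% and 17.3% of arrays. At those of the 208 bp unit it was at 1250 bp in both, with 15.7% and 12.0%. At arrays of the 212 bp unit the fullest bins differed, at 250 bp in premalignant replicate 2 (8.11%) and 5500 bp in malignant replicate 2 (7.71%). A best-20000 peak stood on or near the array for 54.4% to 60.3% of arrays in premalignant replicate 2 and 41.9% to 44.4% in malignant replicate 2, but for 4.05% to 7.53% in wild type replicate 2. The median rank of the best summit was 44361 to 61232 in wild type replicate 2, mostly on the array, against 15014 to 17915 and 22961 to 24097 in premalignant and malignant replicate 2, beside it.

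**Figure D3:**
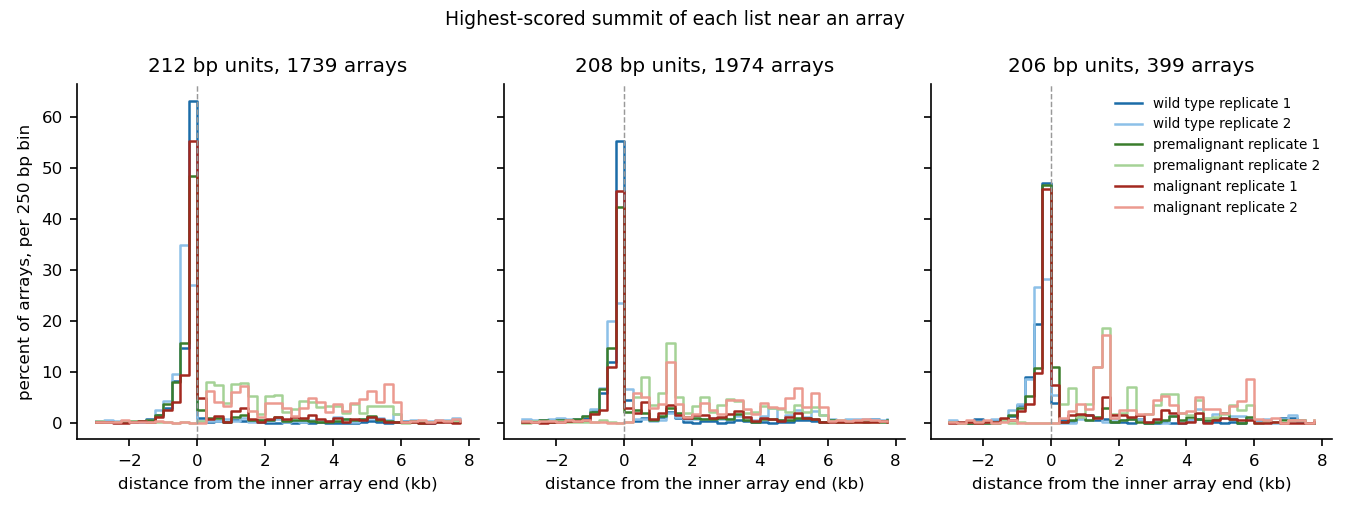
Position of the highest-scored summit of each list relative to the inner end of an array (0 on the horizontal axis, in kb, positive toward the recurring flank), as a percent of arrays per 250 bp bin, for arrays of 212, 208 and 206 bp units. Premalignant replicate 2 and malignant replicate 2 place it between 0 and 6 kb, and the other 4 libraries have their fullest bin just before 0, except wild type replicate 2 at the 212 bp unit, whose fullest bin starts at −500 bp (34.8%).

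A further 400 summits at 145 loci lay in the cluster of 5S ribosomal RNA genes on chromosome 8 (mm9 positions 126062439 to 126148025), which RNA polymerase III transcribes. The annotation lists 51 such genes there, all on the minus strand and 1697.5 bp apart at the median. Summits sat 309 bp from the nearest 5S start at the median, inside peaks with a median width of 88.7 kb. Replicates 1 had 105, 109 and 114 of them and replicates 2 had 27, 14 and 31, in the order wild type, premalignant and malignant. The best-ranked was at rank 255 in malignant replicate 1, and elsewhere the best ranks were from 809 to 8821.

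Most loci held a GC-rich distal summit of a single list only, which does not exclude a peak there in the other full lists. Of all 6402 loci, 3842 were in 1 library, 1741 in 2, 709 in 3, 67 in 4, 18 in 5 and 25 in all 6. Single-copy loci were 9.50% of those in 1 library, 4.65% and 3.95% of those in 2 and 3, and 52.0% of those in all 6. Within a stage, the libraries shared 130 loci in wild type cells, 6.95% of replicate 1 and 37.4% of replicate 2. They shared 58 in premalignant cells (2.20% and 29.3%) and 74 in malignant cells (1.63% and 20.3%). Across stages, malignant and wild type replicate 1 had 1282 in common (28.2% and 68.5%), and malignant and premalignant replicate 2 had 117 (32.1% and 59.1%). Wild type replicate 2 shared fewer with the other replicates 2, 44 with the premalignant (12.6% of its loci) and 62 with the malignant one (17.8%), than the 136 and 147 it shared with premalignant and malignant replicate 1 (39.1% and 42.2%).

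The best-ranked locus of the set was the same in all 6 lists but one. It is the window beside mmu-mir-689-2 shown above, at rank 2 in wild type replicate 1 and rank 1 in the other 5. The locus at mmu-mir-2134-4, in an intron of C230081A13Rik on chromosome 9 (56071430 to 56071695), ranked 3 and 3, 3 and 2, and 4 and 2 in the wild type, premalignant and malignant pairs. Its window shares an exact stretch of 98 bp with the one beside mmu-mir-689-2, on the opposite strand. The Filip1l locus ranked 1 and 6, 2 and 42, and 2 and 43, and its window shares 65 bp, again on the opposite strand, with an intergenic locus 8784 bp from the start of Cerk, the ceramide kinase gene, on chromosome 15 (86025220 to 86025455). That locus ranked 127 and 579, 38 and 378, and 16 and 490. The locus on chromosome 1 (169270368 to 169270625), 82 bp from the start of mmu-mir-2134-1, ranked 1062 and 2024, 432 and 193, and 224 and 137. These 5 loci have a median of 2 to 4 copies in the mm9 assembly, and reads of their copies cannot be told apart where the sequence is identical. Whether they also share sequence with the rDNA repeat, and so receive its reads, was not tested.

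Of the single-copy loci named, 3 in all 6 lists lay at further transcript starts. The Tlk2 window, with 83.6% GC and 30 CpG, ranked 356 and 347, 234 and 40, and 117 and 58. In Socs6, a suppressor of cytokine signalling, the locus on chromosome 18 (89063286 to 89063756) stood 187 bp from a transcript start and 33452 bp from the nearest gene start, at ranks 1964 and 3235, 1381 and 213, and 676 and 223. In Cul1, the scaffold of SCF ubiquitin ligases, the locus on chromosome 6 (47404323 to 47404740) was 218 bp from a second transcript start and 1208 bp from the gene start, at ranks 1704 and 3850, 3803 and 458, and 3306 and 6915. At Tlk2 and Socs6 both wild type ranks were worse than the other 4, while at Cul1 the stages overlapped. These loci were chosen by rank, so the order is a description without a test.

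Other named loci lay in coding exons, introns and between genes. In Fosl1, which encodes the AP-1 subunit FRA-1, the locus in a coding exon on chromosome 19 (5450154 to 5450370) was found in 4 lists, at ranks 598 and 4382 in wild type cells, 599 in premalignant replicate 1 and 2666 in malignant replicate 1, with a CpG ratio of 0.449. Ahnak2, a giant scaffold protein gene with an internally repeated coding exon, held loci in 4 and 3 lists at 15 copies. Introns of Jarid2, which encodes a partner of Polycomb repressive complex 2, and Col6a6, a collagen VI chain gene, held loci in all 6 lists at mean ranks of 1466.5 and 1964. The intergenic locus on chromosome 12 (100883271 to 100883569), single-copy and 195101 bp from the start of Foxn3, was in all 6 as well, at ranks from 70 to 2861.

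By annotation, 4191 of the 6402 loci (65.5%) were intergenic and 1615 (25.2%) intronic, while 313 lay within 1 kb of a further start of a protein-coding or other transcript, 221 within 1 kb of a noncoding RNA gene start and 62 in other exons. The 512 single-copy loci were distributed otherwise, with 240 (46.9%) at further transcript starts, 53 at noncoding RNA gene starts, 46 in exons, 65 in introns and 108 (21.1%) between genes. Outside the 5S cluster, loci near noncoding RNA genes had 28 lincRNAs, 28 processed transcripts and 16 microRNAs as their nearest.

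GC-rich distal summits were next set against other distal summits. These are the 49834 ranked summits that were also distal and free of tandem repeats but under 60% GC. The GC limit of the rule separates the groups, and no such shares were taken for GC-rich genome windows. Whether the differences below go beyond GC content was therefore not tested. Over 6 libraries, 23.95% on average lay within 1 kb of a transcript start against 1.35% of the other distal summits, a difference of 22.6 ± 19.5 percentage points (SD of the 6 differences), higher in 6 of 6 libraries (adjusted p = 0.0469, exact sign-flip permutation test with Benjamini-Hochberg adjustment over 6 measures). The share was 10.4% and 23.6% in the wild type libraries, 9.15% and 46.2% in the premalignant ones and 6.15% and 48.1% in the malignant ones. Replicates 2 were thus higher in every stage. For single-copy summits alone the shares were close in all libraries, from 55.9% to 65.8%, and the difference from single-copy other distal summits was 56.2 ± 4.26 points.

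Exons and noncoding RNA gene starts differed in the same direction in 6 of 6 libraries. Exons held 9.81% of GC-rich distal summits against 0.473%, a difference of 9.34 ± 9.95 points, and noncoding RNA gene starts 9.65% against 0.653%, a difference of 9.002 ± 5.64 points (adjusted p = 0.0469 for each, the same exact permutation test). Without malignant replicate 2, which had 25.3% in exons, the exon difference was 6.18 points. It was 3.43 points in the narrow set of lists and 15.3 points in the wide set. Leaving the 5S cluster out lowered the noncoding RNA difference to 3.65 ± 3.696 points, still higher in 6 of 6 libraries. Protein-coding gene bodies held 43.4% against 29.3%. The difference of 14.1 ± 19.3 points was of mixed sign, higher in 4 of 6 libraries (adjusted p = 0.188, exact permutation test). It was 0.940 points and higher in 1 of 3 libraries of the narrow set. In the wide set it was 27.3 points and higher in 3 of 3. On single-copy summits the gene body difference was 35.0 ± 3.37 points and higher in 6 of 6. Multi-copy sequence held 79.9% of GC-rich distal summits and 86.9% of the others, higher in 3 libraries and lower in 3 (adjusted p = 0.531, exact permutation test).

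Presence in the other lists depended on what was counted. A GC-rich distal summit was inside a peak of all 5 other full lists in 86.1% and 71.2% of cases (wild type), 85.2% and 64.8% (premalignant) and 78.1% and 48.1% (malignant). Among all ranked summits these shares were 61.4% and 56.7%, 64.8% and 22.8%, and 57.7% and 27.4%. Against the other distal summits the difference was 28.4 ± 16.4 points, higher in 6 of 6 (adjusted p = 0.0469, exact permutation test). The call was lost when only the best 20000 peaks of the other lists counted (5.503 points), without the unit families (15.5 points) and among single-copy summits (−4.59 points). When a summit within 200 bp was required the difference was −12.0 points and not called (adjusted p = 0.4875, exact permutation test). Against GC-rich promoter summits, defined below, the difference was 10.6 points and not called (adjusted p = 0.243, exact permutation test), and with a summit within 200 bp it was −18.8 points and called in the opposite direction (adjusted p = 0.0446, exact permutation test).

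Compared with the 3156 GC-rich summits within 1 kb of protein-coding gene starts (GC-rich promoter summits), the distal ones were poorer in CpG. Their mean CpG ratio, the observed over the expected number of CpG dinucleotides, was 0.606 and 0.574 at the wild type stage, 0.616 and 0.743 at the premalignant stage and 0.602 and 0.747 at the malignant one, against 0.880 to 0.999 at gene starts. The mean difference was −0.286 ± 0.0429, lower in 6 of 6 libraries, and its adjusted p of 0.0521 just missed the threshold of 0.05 (exact sign-flip permutation test over 6 libraries, unadjusted p = 0.03125, the smallest this design allows). On single-copy summits the difference shrank to −0.102 ± 0.0403, again lower in 6 of 6. The distal windows that met the rule anywhere in the genome had a mean ratio of 0.414. GC-rich genome windows at gene starts, also taken without regard to peaks, had 0.775. Distal windows were thus poorer in CpG without peaks too, and whether the summits differ beyond that was not tested.

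Several motifs behaved likewise, each lower in 6 of 6 libraries with an adjusted p of 0.0521 by the same exact permutation test. The GC box was in 44.5% of distal and 79.7% of promoter windows (−35.2 ± 6.16 points), and a G-quadruplex pattern, 4 runs of at least 3 G on either strand, in 22.2% and 41.4% (−19.2 ± 14.2). The CTCF core CCAGNNGGC was in 5.501% and 12.3% (−6.77 ± 3.32), and the E-box CACGTG, the site of MYC and MAX, in 1.10% and 2.37% (−1.27 ± 0.829). In genome windows meeting the rule they were in 24.9%, 21.5%, 9.62% and 3.59%. In GC-rich genome windows at gene starts they were in 54.6%, 26.0%, 9.80% and 5.10%. Each was thus lower in distal windows without regard to peaks. Among single-copy summits only the GC box stayed lower in 6 of 6 (74.8% against 84.0%), and the difference was 2.77, −0.592 and 0.118 points for the G-quadruplex pattern, the CTCF core and the E-box, of mixed sign over the libraries.

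The ETS motif and the EBF1 core stood out by library rather than by class. ETS was in 25.2%, 23.4% and 24.9% of windows in replicates 1 and in 15.95%, 3.52% and 2.72% in replicates 2, with 4.75% to 8.72% at gene starts. EBF1 was in 36.0%, 37.0% and 33.6% in replicates 1 and 4.27%, 10.6% and 9.24% in replicates 2. Neither mean difference (8.97 ± 9.87 and 13.01 ± 15.1 points) passed the test, with adjusted p of 0.179 and 0.234 (exact permutation test). Without the unit families the differences were −5.08 and −1.43 points. The NRF1 motif GCGCATGCG was rare, at most 1.01% in any library, and its difference of −0.145 points had an adjusted p of 0.5625 (exact permutation test). Multi-copy sequence held 79.9% of distal and 8.52% of promoter windows, higher in 6 of 6 (adjusted p = 0.0521, exact permutation test).

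**Figure D4:**
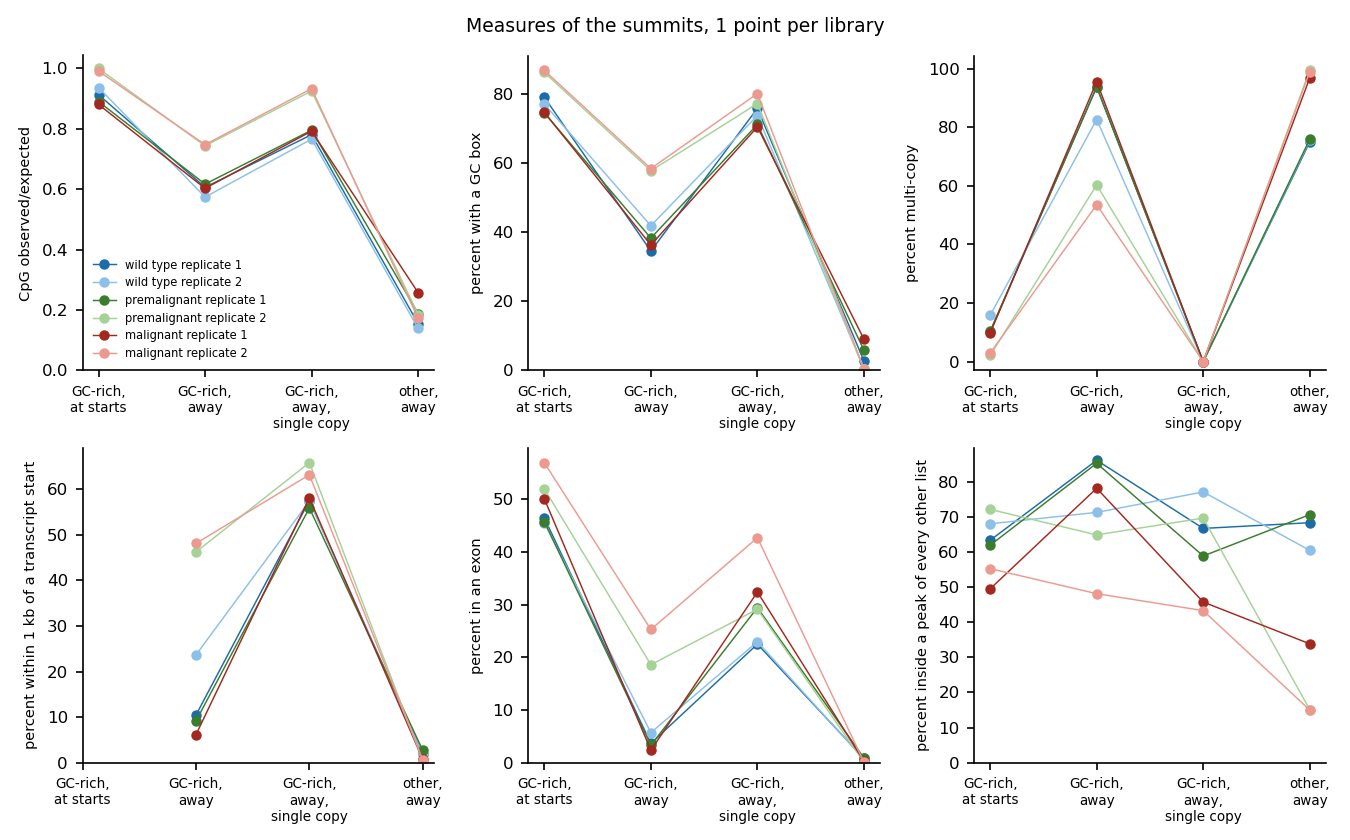
Measures of GC-rich promoter summits (at starts), GC-rich distal summits (away), the single-copy ones among them and other distal summits, 1 point per library with lines joining a library. The single-copy points return toward the promoter summits for the CpG ratio and the GC box, and reach 55.9% to 65.8% for transcript starts; their multi-copy value of 0 is set by definition.

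GC content fell off around the distal summits within about 1 kb. In replicates 1 it averaged 64.9% to 65.5% at the summit, 49.0% to 50.9% at 500 bp and 42.6% to 42.9% at 1000 bp. In premalignant replicate 2 and malignant replicate 2 it was 74.1% and 74.5% at the summit and 49.8% and 49.5% at 1000 bp, with wild type replicate 2 between the groups at 67.9% and 46.1%. Single-copy summits had like profiles in all libraries, from 73.6% to 79.8% at the summit to 48.1% to 51.2% at 1000 bp, and promoter summits went from 73.6% to 80.8% to 46.1% to 47.8%.

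**Figure D5:**
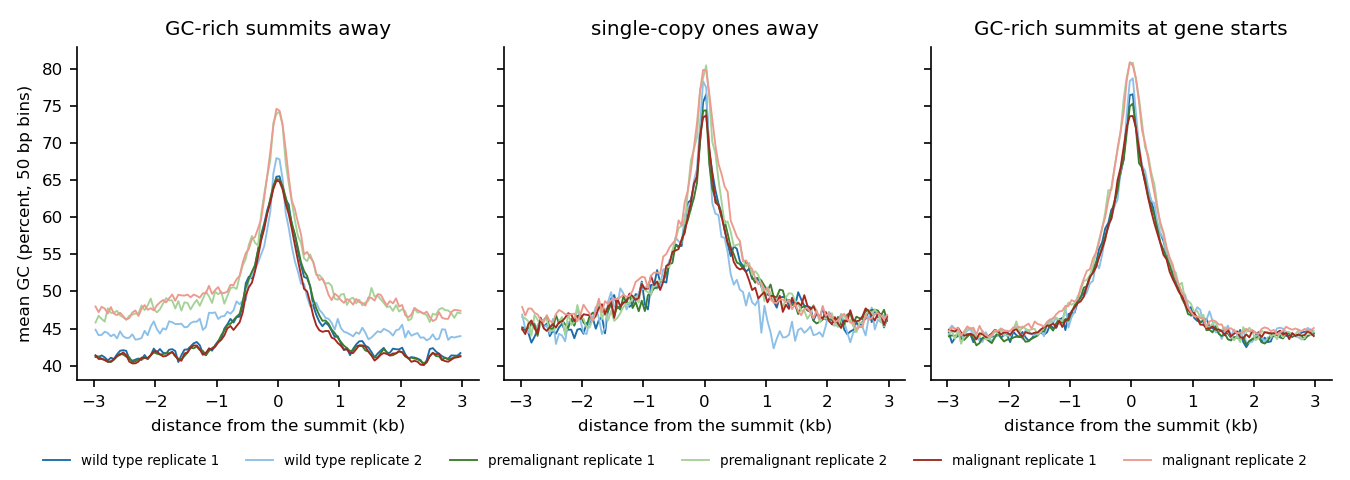
Mean GC content in 50 bp bins (vertical axis) by distance from the summit (horizontal axis, kb) for GC-rich distal summits, the single-copy ones among them, and GC-rich promoter summits, 1 line per library. Profiles of the whole set split into a lower group of replicates 1 and a higher pair, and those of single-copy summits overlap.

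Between stages no measure of the set could be called. The mean CpG ratio by stage was 0.590 (wild type), 0.680 (premalignant) and 0.675 (malignant, n = 2 each), and with 2 libraries against 2 the exact permutation test cannot give a p under 0.333, which it gave for premalignant against wild type. The other contrasts of the CpG ratio had p of 1 and 0.667, and all 3 contrasts of the share near transcript starts had p of 1 by the same exact test. Within the narrow set, premalignant replicate 1 minus the wild type mean was −7.89 points in that share, where the pooled difference was 10.6 points. In every stage the replicates were farther apart than the stage means, except in wild type cells for the CpG ratio.

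Few genes held a GC-rich distal locus more than 1 kb inside their start. Of 21281 protein-coding genes, 1154 (5.42%) had one and 329 (1.55%) had a single-copy one, at a median gene length of 15.5 kb. Among 35 genes of B cell development found in the annotation, 8 had one, 7 of them single-copy, and their median length was 36.1 kb. Those 7 were Bcl11a, Ebf1, Ets1, Ikzf1, Lef1, Myb and Zeb2, all encoding transcription factors. Erg had multi-copy loci only. Of 59 chromatin regulators (median 51.8 kb) 12 had a locus, of 70 developmental transcription factors (6.88 kb) 7, of 39 imprinted genes (24.9 kb) 2 and of 10 protocadherins 0. Longer genes offer more room for a locus, and its part in these shares was not tested.

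Several of the loci in B cell genes sat at further transcript starts. In Ets1 the locus on chromosome 9 (32503507 to 32503821), 46 bp from a transcript start 59.9 kb from the gene start, was the only one of the listed genes found in all 6 lists, at ranks 13377 and 11958 (wild type), 5875 and 8522 (premalignant) and 1890 and 12125 (malignant). In Ikzf1, the gene of IKAROS, a locus 74 bp from a transcript start on chromosome 11 (11585914 to 11586242) was in both wild type and both malignant lists, at ranks 8014 and 18476, and 1100 and 12191. A second Ikzf1 locus, 102 bp from a transcript start (11586246 to 11586465), was in premalignant and malignant replicate 1 at ranks 9919 and 7692. In Ebf1 the locus 320 bp from a transcript start was in 3 lists, at rank 14873 in wild type replicate 2, at 2838 in premalignant replicate 1 and at 2759 in malignant replicate 1. The Bcl11a locus lay in an intron, 1031 bp from the nearest transcript start, and was found in the 3 replicates 1, at ranks 6330, 6197 and 902. Malignant replicate 1 gave the best rank at each of these 4 genes, but Lef1, Myb and Zeb2 differed. The Lef1 locus was only in premalignant replicate 1 (rank 8115) and both Myb loci only in wild type replicate 1 (12271 and 17372). The Zeb2 locus at 44965066 ranked better in wild type replicate 1 (15365) than in malignant replicate 1 (18243). That at 44844269 was only in malignant replicate 1 (5515) and that at 44965690 only in premalignant replicate 1 (12612). Malignant replicate 2 ranked Ets1 and Ikzf1 at 12125 and 12191, so the stage could not be told apart from the library.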

How the data were processed

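The 6 deposited UBTF lists were analysed, and the inputs were not used here. The authors mapped 50-bp paired reads with bowtie2 to mm9 with 1 rDNA copy, removed duplicates with Picard and called peaks per library with SPP, all with default options, under which bowtie2 reports 1 best alignment and picks at random among equal ones. Their later reproducibility filter between replicates was not applied here. The submitters' processing notes name CASAVA 1.8.2, Bowtie and Picard 1.110. In the deposited lists column 7 is a peak score, used only to rank within a list, and column 9 a false discovery rate, read as a p-value type of unit.

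Sequence came from NCBIM37 (mm9) and annotation from GENCODE M1. Python 3.11.15, numpy 2.4.6, pandas 2.3.3, numba 0.67.0 and matplotlib 3.10.9 were used, and the scripts were tested on simulated data. Copies are the median genome count of a window's 24-base words, multi-copy from 2. Tests were two-sided exact permutation tests over libraries, Benjamini-Hochberg adjusted within families of 10, 6 and 6. Named loci were the 8 of best mean rank in all 6 lists and the 3 in most libraries of each annotation class, and listed genes named beyond these were chosen after their values were seen. Members and gene lists were chosen with earlier results of these data known. Replicate numbers paired the libraries by the rule used: differences between replicates 1 and 2 over 2-Mb bins correlated at 0.107, 0.172 and 0.387 between stages, although no label gives a shared batch. Alternatives changed the GC limit, list depth, distance, window, repeat limit, ranking, FDR, sharing and libraries.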

Additional observations from a re-analysis of the deposited data

Results flagged for a closer look

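The share of GC-rich distal summits on multi-copy sequence, minus that of other distal summits of the same library, was positive in both wild type libraries and negative in both malignant ones. It averaged 12.9 percentage points in wild type cells (7.06 and 18.8) and −23.3 in malignant cells (−1.24 and −45.4). The premalignant libraries were of opposite sign, with 93.8% of GC-rich distal and 75.9% of other distal summits on multi-copy sequence in replicate 1, and 60.3% and 99.5% in replicate 2. The sign followed the narrow and wide sets of lists, positive in 3 of 3 narrow lists (mean 14.6) and negative in 3 of 3 wide ones (mean −28.6). Both malignant lists are wide and both wild type lists narrow, so stage and set cannot be told apart, and the difference between the stages was not tested.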

How the results depend on the processing

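Differences in exons, transcript starts and noncoding RNA starts against other distal summits kept their calls under every tested alternative that used all 6 libraries. With 5 libraries the exact test cannot give a p under 0.0625, so every call was lost there by construction. In the alternatives below, the differences in points against promoter or other distal summits are those of the report, and the cause of each move was not tested. At a GC minimum of 55% the CpG ratio of malignant minus premalignant cells was 0.00735, and at 65% the EBF1 difference was −2.88 and the gene body difference 19.4, which was then called. With the best 5000 peaks, the E-box (0.914), NRF1 (0.497), the CpG ratio of premalignant (−0.0255) and malignant (−0.0299) minus wild type and transcript starts of malignant minus wild type (−8.93) turned, gene body (19.2) was called, and presence in every other list (13.9) was not. Windows of 50 bp on each side gave −15.1 for multi-copy sequence against other distal summits, then called, and 18.97 for every other list, not called, while 200 bp on each side gave 1.56 for the E-box and 12.4 for multi-copy sequence. Keeping chromosomes 1 to 19 before ranking gave a CpG ratio of 0.000443 for malignant minus premalignant, and 1 summit per region gave 0.00905 and, for transcript starts, 0.579. Sharing by summits within 200 bp turned presence in every other list to −18.8 against promoter summits, then called, and −12.0 against other distal summits, not called, and sharing with the best 20000 peaks gave 5.503. Alternatives chosen after seeing the data were single-copy summits, which gave 2.77 (G-quadruplex), 0.118 (E-box), −2.91 (ETS), 0.294 (NRF1), −4.84 and −4.59 (every other list), 34.97 (gene body, called) and 0.00233 (CpG ratio, malignant minus premalignant), and omission of the unit families, which gave −5.08 (ETS), −1.43 (EBF1), −2.27 and 15.5 (every other list), 28.5 (gene body, called) and −2.95 (transcript starts, malignant minus wild type). The narrow set gave −7.89 for transcript starts of premalignant minus wild type. Leaving out each library in turn moved the differences against other distal summits from 6.18 to 10.8 for exons, 17.6 to 26.0 for transcript starts, 7.55 to 10.2 for noncoding RNA starts, 21.3 to 31.4 for every other list and −12.2 to 0.645 for multi-copy sequence, which turned without malignant replicate 2. Stage contrasts ranged from −0.0774 to 0.0673 (CpG ratio, malignant minus premalignant) and, for transcript starts, from −7.89 to 29.2 (premalignant minus wild type), −21.5 to 20.4 (malignant minus premalignant) and −10.9 to 31.1 (malignant minus wild type), turning without premalignant replicate 2, malignant replicate 1 or malignant replicate 2. With the replicate block the CpG ratio difference of premalignant minus wild type was 0.0901 with an exact permutation p of 0.5, and no call changed. Read depth is unknown and limits every list.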
